A study of Mus musculus with 48 samples.

Results

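The neuronal pentraxin genes Nptx1, Nptx2 and Nptxr were followed in RNA and at 4 histone marks in the hippocampal CA region of mice labelled Setd1b cKO (conditional knockout) or control. All 3 genes were picked by symbol from Ensembl identifiers, 3 of the 48709 identifiers in the neuron RNA tables and of the 47729 in the whole CA tables, and Nptx2 was picked because its level fell in neuron RNA. The animals were adult C57BL/6J mice of 4 to 6 months. Setd1b encodes a methyltransferase of histone H3 lysine 4, the residue carried by 2 of the marks. RNA came from hippocampal CA neurons (3 libraries labelled cKO and 3 labelled control) or from whole CA tissue (6 and 6). ChIP-seq of sorted neuronal nuclei gave 4 libraries per label for H3K4me3 and H3K4me1, 4 control and 3 cKO for H3K9ac, and 3 control and 4 cKO for H3K27ac. The driver of the deletion and how the neuron RNA was isolated are not given in the sources used here. Nothing there says that libraries came from separate animals, so the p-values measure the spread between libraries, which may be technical.

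Neuronal pentraxins are proteins of the synaptic cleft that bind the outer part of AMPA-type glutamate receptors and gather them at excitatory synapses. Nptx1 and Nptx2 (also called Narp) are secreted, and Nptx2 is an activity-regulated gene whose product is known for strengthening excitatory input onto parvalbumin interneurons. Nptxr is held in the membrane, assembles with both secreted members, and can be released by the protease encoded by Adam17.

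On GRCm38.p6 (RefSeq), Nptx1 (ENSMUSG00000025582) lies at chr11:119538719-119547820, Nptx2 (ENSMUSG00000059991) at chr5:144545887-144557478 and Nptxr (ENSMUSG00000022421) at chr15:79786351-79804709. All are protein-coding with 1 RefSeq transcript each. The Nptxr interval lies inside that of Npcd, a gene listed at 0 counts in every library, and it also overlaps the non-coding gene Gm30977. Since the counting rule is not stated, reads of Nptxr may have been divided or dropped there.

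Setd1b itself was not lower in RNA of the libraries labelled cKO. In neuron RNA it stood at 64.9 ± 6.38 CPM (reads of the gene per 1000000 counted reads; SD, n = 3) against 54.2 ± 9.74 CPM in control. In whole CA it was higher in all 6 libraries labelled cKO than in all 6 labelled control, at 59.6 ± 6.27 against 39.3 ± 8.56 CPM (adjusted p = 0.00415, edgeR's quasi-likelihood test with Benjamini-Hochberg adjustment). The counts cover the whole gene, so loss of single exons was not measured, and groups are named below by their labels. Libraries held 55735204 to 69071100 counted reads in neuron RNA and 14878128 to 20100286 in those of whole tissue. Over all libraries, astrocyte markers (5 genes) summed to 23.7 to 29.2 CPM in neuron RNA and to 1194 to 1463 CPM in whole CA. The 6 oligodendrocyte lineage markers gave 120 to 143 CPM and 3763 to 5669 CPM, the 6 microglial ones 23.5 to 27.1 and 280 to 391 CPM, and the 6 endothelial and mural ones 15.2 to 17.4 and 300.5 to 362 CPM. In neuron RNA 1 of the 5 astrocyte genes (Gjb6) and 3 of the 6 endothelial and mural genes (Cldn5, Pecam1 and Flt1) were under 1 CPM in every library. The 5 pyramidal neuron markers were lower there too, at 2464 to 3347 CPM against 6396 to 7610 CPM in whole CA. So were the 4 CA1 pyramidal markers (521 to 706 against 726 to 852 CPM) and the 6 interneuron markers (499 to 660 against 755 to 969 CPM). The CA2 and CA3 sums overlapped between the materials (152 to 193 and 170 to 266 CPM). Dentate granule cell sums also overlapped (136 to 222 and 59.4 to 138 CPM).

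Nptx2 was the member that differed most between the labels in neuron RNA. The 3 libraries labelled control held 37.4, 32.8 and 29.3 CPM, and the 3 labelled cKO held 14.5, 14.3 and 17.9 CPM. These groups did not overlap, with 2027 to 2265 reads behind the control values and 907 to 996 behind the others. The cKO mean was 53.1% lower, or -1.11 (SE 0.12) as a log2 fold change. This contrast chose the gene and is given with no test; 11.1% of the 19622 genes tested were likewise lower in every library labelled cKO.

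In whole CA tissue, Nptx2 ranged over nearly the same levels under both labels. The control libraries held 31.7 CPM at the lowest, 39.8 at the median and 44.0 at the highest, and those labelled cKO 32.5, 35.6 and 39.6 CPM. The log2 fold change was -0.14 (SE 0.08; adjusted p = 0.445), and the ranges overlapped, the lowest value being a control. Taken alone, the lane of replicates 1 to 3 gave -0.10 (SE 0.09) and the lane of replicates 4 to 6 gave -0.18 (SE 0.12). No member was called in whole CA, where 4.17% of the 15362 genes tested passed an adjusted p of 0.05. Subtracting the whole CA from the neuron log2 fold change left -0.96 (SE 0.14) for Nptx2, in 1 fit of all 18 RNA libraries; it holds the contrast that chose the gene and is also given with no test. In bulk samples, fewer cells of a type and less RNA per cell cannot be told apart.

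The summed levels of some cell type markers also differed between the labels in neuron RNA, where 2.0% of all genes were called lower. The 5 dentate granule cell markers summed to 196 to 222 CPM in the control libraries and to 136 to 172 CPM in those labelled cKO. Of the 5, 3 were called lower: Lct, Tdo2 and Dsp. Pdzd2 (48.3 against 34.0 CPM) was not called, and Prox1 stayed level, at 74.9 against 74.5 CPM. For the 4 CA1 pyramidal markers the sums were 615 to 706 against 521 to 591 CPM, with 1 of 4 called: Wfs1 fell from 140 to 65.4 CPM. The 6 CA2 and CA3 markers summed to 172 to 193 against 152 to 159 CPM, with 1 of 6 called: Amigo2 fell from 65.7 to 43.1 CPM. Sums of the 5 general pyramidal neuron markers overlapped, at 2813 to 3347 against 2464 to 2847 CPM. Of these 5, 2 were called lower: Neurod6 fell from 152 to 32.5 CPM and Nrgn from 241 to 180 CPM. Interneuron markers overlapped, at 503 to 597 against 499 to 660 CPM, with 0 of 6 called and 0 of 6 at an unadjusted p under 0.05. In whole CA, where Nptx2 was not called, the dentate sum was also lower without overlap, at 108 to 138 against 59.4 to 104 CPM. Sums of the CA2 and CA3 markers overlapped there, at 220 to 266 against 170 to 248 CPM. Called lower in that tissue were 2 of 5 dentate, 3 of 6 CA2 and CA3, 1 of 4 CA1 and 1 of 5 pyramidal markers. Of the interneuron markers 0 of 6 were, and of all genes 2.79%. The part of these cell types in the Nptx2 values was not tested.

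Nptx1, the other secreted member, showed no such separation. Its neuron RNA values were 569, 560 and 473 CPM in control and 476, 488 and 607 CPM in the libraries labelled cKO. Each label had both low and high libraries, and the log2 fold change was -0.04 (SE 0.12), given with no test as a member's value in the choosing contrast. In whole CA the lowest, median and highest values were 562, 639 and 710 CPM in control and 604, 639 and 690 CPM in cKO. There the log2 fold change was -0.002 (SE 0.06; adjusted p = 0.995), and the sign differed between lanes, at 0.13 (SE 0.08) for replicates 1 to 3 and -0.13 (SE 0.08) for replicates 4 to 6.

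Nptxr, the membrane-bound member, was slightly lower on average in both materials and was not called in whole CA. In neuron RNA the control libraries held 533, 459 and 485 CPM and those labelled cKO 422, 442 and 504 CPM. Here 2 of 3 libraries labelled cKO lay below every control, the third between them, for a log2 fold change of -0.12 (SE 0.10), again with no test. In whole CA the lowest, median and highest values were 1086, 1127 and 1397 CPM in control and 919, 1041 and 1152 CPM in cKO. In that tissue 5 of 6 libraries labelled cKO lay below every control. The log2 fold change was -0.19 (SE 0.06; adjusted p = 0.110). Without control replicate 4, the library at 1397 CPM, it was -0.13 (SE 0.06; adjusted p = 0.277). Both lanes gave a negative value, -0.16 (SE 0.07) and -0.21 (SE 0.10).

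**Figure D1:**
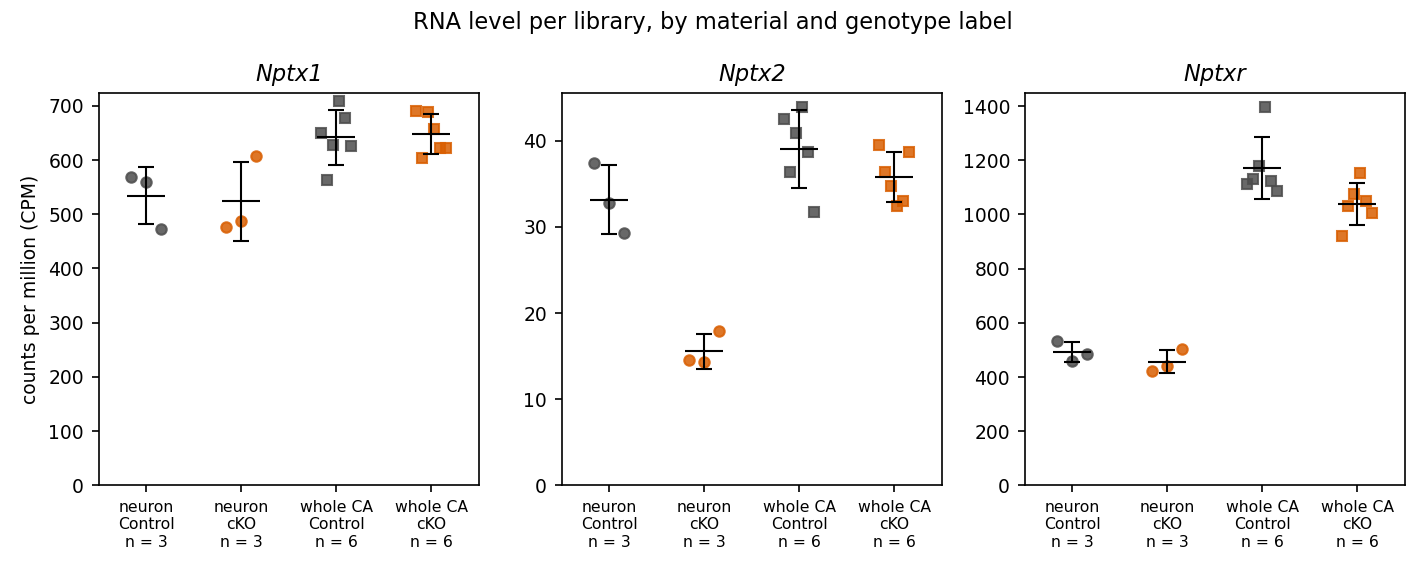
CPM (vertical axes, from 0) of each pentraxin gene in every RNA library; circles are neuron RNA, squares whole CA, bars the mean ± SD, and n the number of libraries. Nptx2 in neuron RNA separates by label (29.3 to 37.4 against 14.3 to 17.9 CPM), while the other 5 pairs of groups overlap.

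The receptor side of the pathway was described from gene lists. Of the 4 AMPA receptor subunits, 0 were called in neuron RNA (edgeR; 1 of 4, Gria1, had an unadjusted p under 0.05), where 2.75% of all genes were called and 17.2% had an unadjusted p under 0.05. In whole CA 1 of 4 was called (edgeR), against 4.17% of all genes, and 3 of 4 had an unadjusted p under 0.05, against 15.7%. The called gene, Gria2, the subunit that limits calcium entry, fell from 1267 ± 84.5 to 979 ± 91.3 CPM (SD, n = 6, log2 fold change -0.38, SE 0.07, edgeR adjusted p = 0.00272). All of its 6 libraries labelled cKO lay below all 6 controls, as they did for 1.78% of genes. Over the 4 subunits the log2 fold change had a median of -0.08 for neurons and -0.13 for whole CA, beside 0.02 and -0.003 over all genes tested.

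Auxiliary subunits, which set the trafficking and gating of AMPA receptors, changed in both directions in whole CA. Of 12 genes, 3 were lower and 2 higher there, against 2.79% and 1.38% of all genes. Cacng7, encoding a transmembrane AMPA receptor regulatory protein (TARP), rose from 121 ± 17.2 to 190 ± 15.6 CPM (log2 fold change 0.64, SE 0.09). Cnih3, a cornichon, rose from 84.4 ± 6.10 to 120 ± 12.5 CPM (log2 fold change 0.50, SE 0.06). The TARP genes Cacng5 and Cacng8 fell, with log2 fold changes of -0.53 (SE 0.10) and -0.33 (SE 0.08), and so did Shisa6, at -0.36 (SE 0.07). In neuron RNA 0 of the 12 were called (edgeR), although 8 of 12 had an unadjusted p under 0.05. Over all genes there the shares were 2.75% and 17.2%. Cacng7 and Cnih3 had positive values there too, 0.25 (SE 0.10) and 0.26 (SE 0.08), and Cacng5, Cacng8 and Shisa6 negative ones of -0.34, -0.54 and -0.31. The medians of the list were -0.26 in neuron RNA and -0.05 in whole CA.

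**Figure D2:**
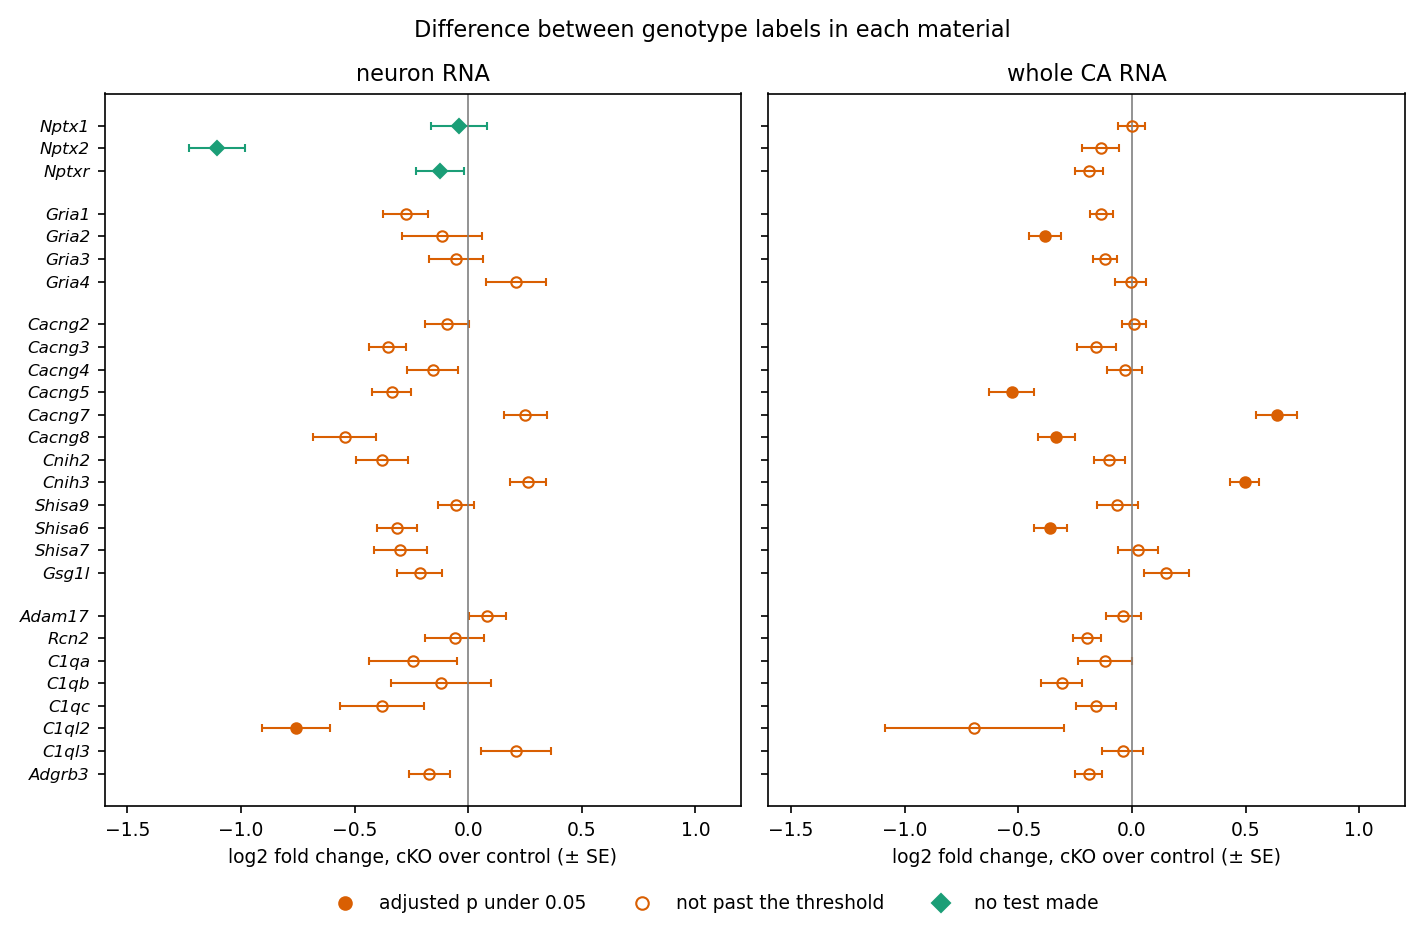
Log2 fold change (horizontal axes, cKO over control, bars ± SE) of the pentraxins, AMPA receptor subunits, their auxiliary subunits and pentraxin partners in neuron RNA and whole CA. Filled circles passed an adjusted p of 0.05, open circles did not, and diamonds are members in the contrast that chose Nptx2; Cacng7 and Cnih3 lie to the right of 0 in both materials and Gria2 is filled in whole CA.

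The partner list held the protease gene Adam17, the pentraxin-binding gene Rcn2, the complement genes C1qa, C1qb and C1qc, the synaptic organizers C1ql2 and C1ql3, and Adgrb3, a receptor for C1ql proteins. In neuron RNA 1 of 8 was called (edgeR), against 2.75% of all genes. This was C1ql2, which fell from 45.01 ± 6.89 to 26.9 ± 5.34 CPM (log2 fold change -0.76, SE 0.15, edgeR adjusted p = 0.0299). C1ql2 is made by dentate granule cells. Their markers were also lower in these libraries as a sum, though Prox1 was not, as given above. The part of these cells in the fall of C1ql2 was not tested. In whole CA 0 of 8 were called (edgeR), with 3 of 8 at an unadjusted p under 0.05, against 15.7% of all genes, and C1ql2 stood at 7.41 ± 2.50 against 4.61 ± 3.79 CPM. Adam17, which acts on Nptxr, had log2 fold changes of 0.08 (SE 0.08) in neuron RNA and -0.04 (SE 0.08) in whole CA.

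Other pentraxin-domain genes were at trace levels. Of 6 such genes, 2 could be tested in neuron RNA and 0 in whole CA. Ptx3, a long pentraxin of innate immunity, was called lower in neuron RNA, at 0.680 ± 0.221 CPM in control and 0.173 ± 0.0556 CPM in cKO (edgeR adjusted p = 0.0195). The other gene tested, Ptx4, was not called, at 0.476 against 0.239 CPM (edgeR adjusted p = 0.144). For Ptx3 and Ptx4 every library labelled cKO lay below every control, as for 11.1% of all genes, of which 2.0% were called lower.

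Of 24 other activity-regulated genes, 3 were called lower in neuron RNA, against 2.0% of all genes, and 0 higher, while 10 of 24 had an unadjusted p under 0.05 against 17.2% of all genes. Ptgs2, encoding the inducible prostaglandin synthase, was at 49.2 ± 10.9 against 27.3 ± 3.02 CPM (log2 fold change -0.86, SE 0.16). Nrn1 (neuritin) had a log2 fold change of -0.46 (SE 0.08) and Vgf, a secreted peptide precursor, one of -0.53 (SE 0.11). In whole CA 2 were called lower and 1 higher, against 2.79% and 1.38% of all genes. An unadjusted p under 0.05 (edgeR) was reached there by 6 of 24, against 15.7% of all genes. Ptgs2 was again lower there, at -0.93 (SE 0.10), and Nrn1 at -0.32 (SE 0.06), whereas the prohormone convertase gene Pcsk1 was higher, at 0.33 (SE 0.09). The list's medians were -0.21 in neuron RNA and 0.05 in whole CA, beside 0.02 and -0.003 over all genes tested.

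Among 7 genes of the perineuronal net, the matrix around parvalbumin interneurons, 1 was called in each material, where 2.75% and 4.17% of all genes were called. An unadjusted p under 0.05 (edgeR) was reached by 4 of 7 in neuron RNA, against 17.2% of all genes, and by 1 of 7 in whole CA, against 15.7%. Bcan (brevican) fell in neuron RNA, with a log2 fold change of -0.65 (SE 0.14), and Acan (aggrecan) fell in whole CA, at -0.56 (SE 0.15). The medians were -0.27 and -0.09, beside the same 0.02 and -0.003 over all genes.

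Across the 12 whole CA libraries no relation between the members passed its test. For Nptx1 and Nptx2, Pearson's r was 0.38 (permutation p = 0.225) and Spearman's rho 0.36 (p = 0.258). Nptx1 with Nptxr gave r = 0.23 (permutation p = 0.480) and rho = 0.25 (p = 0.428), and Nptx2 with Nptxr r = 0.33 (p = 0.296) and rho = 0.38 (p = 0.217). Nptx2 and the mean of the 24 activity-regulated genes gave r = 0.05 (permutation p = 0.879) and rho = -0.03 (p = 0.920). Over these 4 relations the lowest adjusted p was 0.591. Without the 2 libraries farthest from the median of the first measure, r was 0.56, 0.38, 0.07 and 0.23 in the same order. Within lanes, Nptx1 and Nptxr had r = -0.38 among replicates 1 to 3 and r = 0.90 among replicates 4 to 6 (n = 6 each; exact permutation p = 0.469 and 0.00139, the second 0.00556 after adjustment over 4 relations), so the relation did not hold in both lanes. The other 3 relations had an r of 0.15, 0.05 and -0.34 in the first of these lanes and of 0.71, 0.59 and -0.13 in the other. Within the control label the 4 values were 0.48, 0.52, 0.58 and -0.58, and within cKO 0.34, 0.02, -0.73 and 0.73; none of these 8 had an adjusted p under 0.05 (lowest 0.239, exact permutation).

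Genes with the most similar profile were named over all 18 RNA libraries, centred within each material, among the 14967 genes tested in both; these correlations share libraries and labels and carry no p. Nptx2 was closest to Npr1 (r = 0.91), Plod1 (0.90), Slc38a5 (0.90), Capn3 (0.90) and Snd1 (0.90). Npr1, the receptor for atrial natriuretic peptide, was lower in both materials, with log2 fold changes of -2.87 in neuron RNA and -0.65 in whole CA. Capn3, a calpain protease, had values of -2.18 and -0.58, and the difference between labels in neuron RNA enters all of these coefficients. Nptxr was closest to Mlec (0.90), Ly6e (0.88), A930024N18Rik (0.87), Mipep (0.85) and Gng3 (0.84). Nptx1 had looser neighbours, Olfm1 (0.75), Psrc1 (0.72), Tbl2 (0.71), Atp2b3 (0.71) and Spock2 (0.71). The members' own coefficients with each other were 0.35 for Nptx1 with Nptx2, 0.37 for Nptx1 with Nptxr and 0.43 for Nptx2 with Nptxr.

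H3K4me3, the mark of active gene starts, was shorter at Nptx1 and Nptxr in the libraries labelled cKO, the 2 members whose RNA did not separate by label. The measure was the length under called peaks within 5 kb on either side of the gene start, or on the side inside the gene. For Nptx1 the inside length was 4888, 4873, 5001 and 5001 bp in the 4 control libraries and 2764, 3471, 3486 and 3303 bp in the 4 labelled cKO. At Nptxr it was 4564, 4533, 4520 and 4663 bp against 2548, 2627, 2770 and 3380 bp. Both genes separated fully, by -1685 bp and -1739 bp on average (two-sided exact permutation p = 0.0286 each, the smallest 4 against 4 libraries allow). Over all gene starts, limma gave adjusted p-values of 0.000775 and 0.000725. The control values of Nptx1 reached 5001 bp, the full window, and its widest control peak ended 4728 to 5630 bp inside the gene against 2377 to 3485 bp in cKO. Shortening of this kind was common: 31.7% of 18017 other starts were shorter inside the gene in every library labelled cKO, 29.1% were called shorter by limma, and the median difference over these starts was -92 bp. Of all starts, 2.46% and 2.25% had a difference in bp as low as those of Nptx1 and Nptxr.

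For Nptx2 the H3K4me3 peak was narrower to begin with and differed less in length. Its inside length was 2958, 2876, 2740 and 2956 bp in control and 2296, 2756, 2396 and 2757 bp in cKO. The groups overlapped, and the mean difference was -331 bp (exact permutation p = 0.0857; limma adjusted p = 0.104). On both sides together the lengths were 3415 ± 148 bp and 3173 ± 249 bp (SD, n = 4), against 7417 ± 167 and 5512 ± 327 bp at Nptx1 and 5125 ± 24.7 and 3440 ± 394 bp at Nptxr. Over that window 30.6% of 19692 other starts were shorter in every library labelled cKO. On the side away from the gene, the differences were -220 bp at Nptx1, 89 bp at Nptx2 and 54 bp at Nptxr (exact permutation p = 0.0571, 0.114 and 0.514). For Nptx1 that side holds the lower end of the interval of the non-coding gene Gm11762, at position 119548630. The authors' fold enrichment of the strongest Nptx2 peak was 24.8 to 26.6 in the control lists and 14.2 to 20.5 in the cKO lists; each label had its own input library, so these are given side by side with no comparison.

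**Figure D3:**
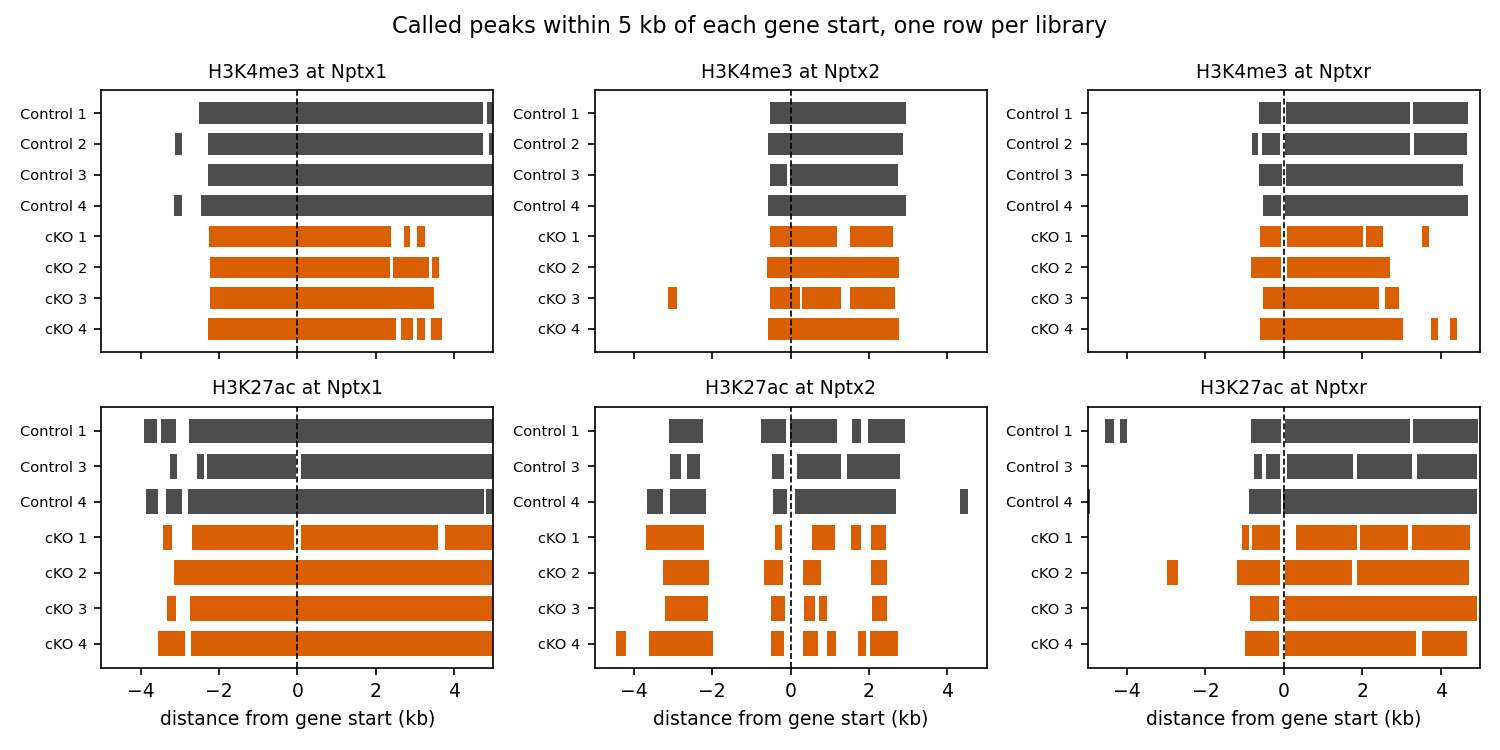
Called peaks of H3K4me3 (top) and H3K27ac (bottom) within 5 kb of each gene start (dashed line; horizontal axis in kb, positive into the gene), 1 row per library, grey for control and orange for cKO. H3K4me3 blocks at Nptx1 and Nptxr end nearer the start in the orange rows (inside lengths of 2764 to 3486 and 2548 to 3380 bp). H3K27ac covers less inside Nptx2 in the orange rows (870 to 1551 against 2381 to 2790 bp) and lies in separate pieces under both labels.

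Acetylation gave another order of the genes. H3K27ac, a mark of active promoters and enhancers, covered 2381, 2509 and 2790 bp inside Nptx2 in the 3 control libraries and 1210, 870, 882 and 1551 bp in the 4 labelled cKO. The groups did not overlap, and the mean difference was -1432 bp (exact permutation p = 0.0286, the smallest 4 against 3 allow), a separation seen at 12.7% of 17814 other starts. Limma over all starts did not call it (log2 difference -1.15, SE 0.21, adjusted p = 0.0793); 0.365% of starts had a difference in bp as low, and 0.775% were called shorter. On both sides together Nptx2 had 3939 ± 536 bp (n = 3) and 2868 ± 650 bp (n = 4; exact permutation p = 0.0857), with a negative difference in both lanes (-960 and -1462 bp). Nptx1 and Nptxr kept long H3K27ac blocks under both labels, at 4950 ± 47.4 and 4930 ± 141 bp inside Nptx1 (exact permutation p = 1.0) and 4817 ± 144 and 4564 ± 261 bp inside Nptxr (exact permutation p = 0.171). At Nptx1 these lengths lie at the window's limit, so a change beyond it would not be seen.

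H3K9ac, another acetylation of active starts, was also shorter at Nptx2. The inside length was 2168, 2056, 2384 and 2306 bp in control and 1931, 1310 and 1555 bp in cKO. Both groups stood apart by -630 bp (exact permutation p = 0.0286), as 17.5% of 18533 other starts did, and limma over all starts did not call it (adjusted p = 0.117), calling 3.34% of starts shorter. On the other side of the start H3K9ac was 104 bp longer (exact permutation p = 0.0286; limma adjusted p = 0.203), a separation shared by 5.73% of 17898 other starts. For Nptx1 the mean difference inside the gene was -557 bp and for Nptxr -276 bp (exact permutation p = 0.0571 each), and limma called neither (adjusted p = 0.316 and 0.459). The Nptxr groups did not overlap, at 3731, 3843 and 3750 bp in cKO and 3929 to 4196 bp in control.

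H3K4me1, a mark that flanks active starts and lies over enhancers, was longer at Nptx1 in the libraries labelled cKO. Inside the gene it covered 2948, 2971, 2874 and 2818 bp in control and 5001, 5001, 4284 and 5001 bp in cKO, where 3 of 4 libraries filled the window. The difference was 1919 bp (exact permutation p = 0.0286; limma adjusted p = 0.00224), a full separation upward that 4.74% of 22622 other starts showed, with 1.68% called longer by limma. At a stricter peak threshold (-log10 q of at least 5) the difference at Nptx1 over both sides was -315 bp in place of 2404 bp. Peaks under that threshold made up the added length. The only H3K4me1 peaks left at Nptx1 were from cKO replicate 3 (-log10 q 5.07) and control replicate 4 (5.08), just past the cutoff. That value therefore does not measure a difference between the labels. Inside Nptx2 the difference was 198 bp (exact permutation p = 0.429) and inside Nptxr 384 bp, at 3261 to 3961 bp in control and 3988 to 4150 bp in cKO with no overlap (exact permutation p = 0.0286; limma adjusted p = 0.334). Over both sides Nptx2 had 7332 ± 402 against 8499 ± 504 bp (exact permutation p = 0.0286, limma adjusted p = 0.180). Such a separation upward was shown by 5.25% of 24878 other starts. Most of the added length lay outside the gene, at 2823 ± 295 against 3793 ± 372 bp (exact permutation p = 0.0286, limma adjusted p = 0.144). On that side 5.1% of 22177 other starts separated upward. At the stricter threshold the Nptx2 value over both sides was -577 bp, from the only peak left, in control replicate 3 (-log10 q 5.74). Counting both sides together and each side alone, 36 comparisons of a gene and a mark were made.

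**Figure D4:**
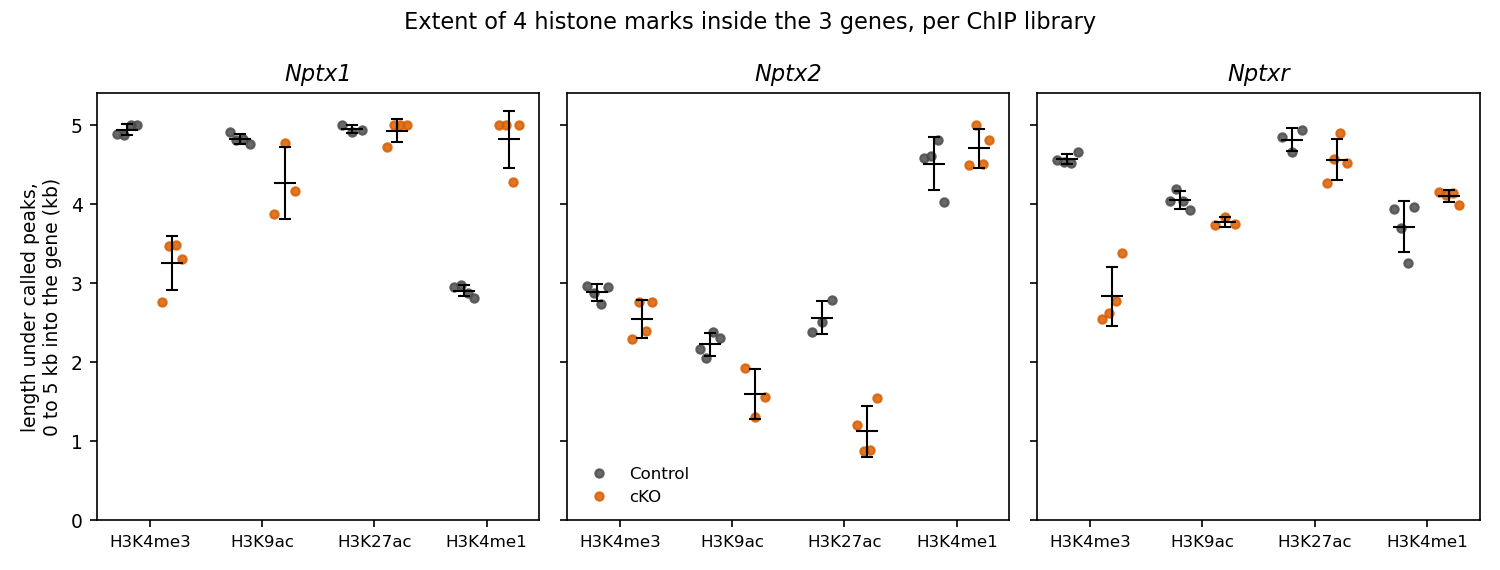
Length under called peaks from 0 to 5 kb inside each gene (vertical axis, kb, from 0) for 4 histone marks, 1 point per ChIP library with mean ± SD; grey is control and orange cKO. H3K4me3 separates at Nptx1 and Nptxr, H3K27ac at Nptx2, H3K9ac at Nptx2 and Nptxr (-630 and -276 bp), and H3K4me1 upward at Nptx1 and Nptxr (1919 and 384 bp).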

How the data were processed

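RNA tables deposited by the authors held whole-number read counts per Ensembl gene; aligner, counter and strand setting are not given in the sources used here. The kit (TruSeq RNA v2, per the labels' protocols) does not mark strand. Peak lists came from MACS2 in narrow mode at a q of 0.1, per the file headers, each library against 1 input library of its label, on mm10/GRCm38 per the submitters' processing notes. Per the file headers they give peak length, pileup signal, fold enrichment (a ratio to background) and −log10 q for each peak. ChIP libraries held 24377163 to 41631187 tags.

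Members and lists were chosen with earlier results of these data known. Counts went to edgeR 4.0.16 (TMM factors, filterByExpr, quasi-likelihood test, Benjamini-Hochberg over all genes tested, calls under 0.05); CPM used the total counted reads, and edgeR's SE is the log2 fold change over the root of F. No transcript lengths were given, so levels were not compared between genes. Gene starts were taken as the end of the RefSeq interval that carried H3K4me3; neighbouring windows can overlap. Covered length was tested by exact permutation over libraries and, added after seeing the data, by limma 3.58.1 on log2(bp + 100) over starts with a peak in at least 3 libraries. Exact p-values were not adjusted over the members. Correlations used 100000 permutations (exact for 6 libraries). Named genes were the members, up to 4 called genes per direction from each list, and the 5 closest genes by correlation. DESeq2 1.42.0, other factors and filters, lanes named in the file names, a replicate block and single libraries left out were alternatives. No 2 libraries held identical counts.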

Additional observations from a re-analysis of the deposited data

Results flagged for a closer look

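Nptxr in whole CA RNA had 1 control library, replicate 4, at 1397 CPM, far above the other 5 control libraries, which held 1086 to 1180 CPM. Its gap to the nearest control exceeded the limit that Dixon's test sets for 6 values. The same library was the highest of the 12 for Nptx1 (710 CPM) and for Nptx2 (44.0 CPM). It was 1 of 24 groups of 4 to 6 libraries examined for the members, and chance flags about 1 group in 20.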

How the results depend on the processing

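Of 111 alternative fold changes of the members, 95 kept their direction and side of the threshold, 15 changed sign, all of them for Nptx1, and 1 kept its sign and changed side. Nptx2 in neuron RNA stayed between -1.21 and -1.01 when single libraries were left out. Nptx1 in neuron RNA (-0.04) ranged from -0.16 to 0.017, being above 0 without cKO replicate 1, cKO replicate 2 or control replicate 1. Nptx1 in whole CA, near 0 in the main fit, turned to 0.00053 with RLE factors, 0.012 with library size only, 0.0026 with no filter, 3.6e-05 with DESeq2 and 0.13 in the lane of replicates 1 to 3, and ranged from -0.034 to 0.030 with single libraries left out. Replicate numbers were not taken as pairs. Libraries of the same number had correlations of -0.06, 0.29 and -0.004 in neuron RNA and of 0.11, 0.11, 0.12, 0.20, 0.03 and -0.06 in whole CA. A weak shared factor by number or lane was not tested. With a replicate block, Nptxr in whole CA was -0.19 (adjusted p = 0.0286), the neuron count of called genes was 327 in place of 539, and no other RNA member changed its call. That count was 930 at an adjusted p under 0.1, 832 with DESeq2, and 207 to 482 with single libraries left out: 207 without cKO replicate 1, 259 without cKO replicate 2, 311 without control replicate 2 and 268 without control replicate 3. Single lanes of whole CA (fewer libraries) gave 207 and 224 calls in place of 640, whereas the replicate block gave 839 and lane as a covariate 683.

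Within 2 kb of the start, H3K4me3 differences were 0.0 bp at Nptx1 and 53 bp at Nptxr. H3K4me3 filled this window at Nptx1 (mean 4001 bp), so no difference could appear there. At Nptxr the widest cKO H3K4me3 peak ended 2023 to 3045 bp inside the gene, so its shortening lay beyond the window. H3K9ac differed by 9.2 bp at Nptx1 and 64 bp at Nptxr, and H3K27ac by -1118 bp at Nptx2 and 106 bp at Nptxr. At a -log10 q of at least 5, H3K9ac at Nptx1 was -828 bp (exact permutation p = 0.0286) and H3K27ac at Nptx2 -1426 bp. H3K4me1 was -315 bp at Nptx1 and -577 bp at Nptx2. The only H3K4me1 peaks past that threshold were from cKO replicate 3 and control replicate 4 at Nptx1 and control replicate 3 at Nptx2. On the side away from the gene, H3K4me3 was -220, 89 and 54 bp and H3K9ac 117, 104 and 239 bp at Nptx1, Nptx2 and Nptxr. There H3K27ac was 360 bp at Nptx2 and 117 bp at Nptxr, and H3K4me1 486 bp at Nptx1. On the inner side alone H3K27ac at Nptx2 was -1432 bp and H3K4me1 198 bp at Nptx2 and 384 bp at Nptxr. The replicate block used sign flips, whose p cannot go below 0.125 with 4 pairs, nor as low as that with the fewer pairs of H3K9ac. It gave -1905 and -1685 bp for H3K4me3 at Nptx1 and Nptxr and -462 bp for H3K9ac at Nptx2. For H3K4me1 it gave 2404 and 1168 bp at Nptx1 and Nptx2. Limma did not call H3K9ac at Nptx2 (-526 bp) or H3K4me1 at Nptx1 (2404 bp) and Nptx2 (1168 bp).

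Leaving out single ChIP libraries gave -693 to -380 bp for H3K9ac at Nptx2 (which cannot reach 0.05 with so few), -144 to 108 bp at Nptxr (positive without cKO replicate 4 or control replicate 2) and -371 to 33 bp for H3K27ac at Nptxr (positive without control replicate 1). H3K4me1 ranged from 2152 to 2808 bp at Nptx1 and from 924 to 1334 bp at Nptx2, and lost its exact p (0.0571) at Nptx1 without any 1 control and at Nptx2 without cKO replicate 2. Correlations changed to -0.38 and 0.90 (Nptx1 with Nptxr, by lane), -0.73 (Nptx2 with Nptxr, cKO only), and, for Nptx2 with the activity-regulated genes, -0.040 (library size only), -0.34 and -0.13 (by lane) and -0.58 (control only). The cause of these changes was not tested.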
